A study of Mus musculus with 14 samples.

Results

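The members described here are the CC and CXC chemokine ligands of the mouse, taken as every gene whose name on the array was Ccl or Cxcl followed by a number. This rule found 33 of the 27343 gene names on the array, carried by 41 probes, of which 8 members had several probes and were represented by the probe with the highest mean signal. RNA was measured in 14 samples on single-colour Agilent arrays, 1 array per sample. For myeloid progenitors and for myeloid cells there were 3 samples of each genotype, wild type and Rheb1-/-. Hematopoietic stem cells had 1 sample of each. Rheb1-/- samples came from Vav1-cre; Rheb1fl/fl mice, in which Cre driven by Vav1 removes the floxed alleles throughout the blood system, so every blood cell type of those mice, and not only the one sorted, can have lost the gene. Rheb1 (official symbol Rheb) encodes a small GTPase that activates the growth kinase complex mTORC1. Age and the makeup of the wild-type genotype are not given in the sources used here. The labels tie no sample to an animal, so each p-value measures only the spread between these samples, which may be technical.

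Chemokines are small secreted proteins that guide cells by binding receptors coupled to G proteins. CC and CXC ligands are told apart by the spacing of their first cysteines. The CC ligands act mainly on monocytes, macrophages, eosinophils and lymphocytes. Among the CXC ligands, those with an ELR motif attract neutrophils, interferon-induced ones attract T and NK cells, and Cxcl12 holds blood-forming cells in the bone marrow. Myeloid cells both make these ligands and respond to them.

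Levels are given as log2 intensity minus the 75th percentile of the same array, so a value of 0 lies at that percentile and a difference of 1 is a doubling. They compare arrays for 1 gene and do not rank genes, because each probe responds to its target differently. Between 58.5% and 67.6% of spots were well above background and none was saturated. The Rheb probe read 3.82 to 4.08 in wild-type and 2.65 to 3.31 in Rheb1-/- progenitors, 2.86 to 3.61 and 2.16 to 2.43 in myeloid cells, and 3.51 and 2.31 on the stem cell arrays, so every Rheb1-/- array lay below every wild-type array of its cell type. Whether the probe lies in the deleted part was not analysed here. The arrays lay on 4 slides. All wild-type myeloid cell arrays shared slide 1 with the Rheb1-/- stem cell array, and all Rheb1-/- myeloid cell arrays shared slide 4 with Rheb1-/- progenitor array 3, so in myeloid cells and in stem cells genotype and slide cannot be told apart, nor can cell type and slide in wild type. Only slide 3 had progenitors of both genotypes, with arrays 2 and 3 of wild type and arrays 1 and 2 of Rheb1-/-. In these bulk samples, fewer cells of a type and less RNA per cell cannot be told apart.

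The RefSeq promoter table (GRCm38.p6) held 23 of the 33 members, and the windows of Cxcl1, Cxcl2, Cxcl3 and Cxcl10 are shown because the first 3 are close relatives with unlike detection and Cxcl10 holds matches to several motifs. Each window is the 250 bases before the start of the gene, 5′ to 3′ on the strand of the gene. Capitals mark matches to the NF-kB motif and, in Cxcl10, also to the interferon-stimulated response element (GAAA, any pair of bases, then GAAA). They are chr5:90890995-90891244 on the plus strand for Cxcl1, chr5:90903649-90903898 on the plus strand for Cxcl2, chr5:90785851-90786100 on the plus strand for Cxcl3 and chr5:92348890-92349139 on the minus strand for Cxcl10.
Cxcl1: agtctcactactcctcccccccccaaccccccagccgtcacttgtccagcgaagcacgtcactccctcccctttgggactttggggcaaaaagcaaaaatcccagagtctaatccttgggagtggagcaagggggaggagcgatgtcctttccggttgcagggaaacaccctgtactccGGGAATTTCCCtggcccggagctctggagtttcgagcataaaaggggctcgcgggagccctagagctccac
Cxcl2: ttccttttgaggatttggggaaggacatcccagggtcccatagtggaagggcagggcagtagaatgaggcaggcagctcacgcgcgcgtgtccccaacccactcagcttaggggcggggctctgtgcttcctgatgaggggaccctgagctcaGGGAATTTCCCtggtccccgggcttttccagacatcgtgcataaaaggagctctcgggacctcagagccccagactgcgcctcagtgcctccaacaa
Cxcl3: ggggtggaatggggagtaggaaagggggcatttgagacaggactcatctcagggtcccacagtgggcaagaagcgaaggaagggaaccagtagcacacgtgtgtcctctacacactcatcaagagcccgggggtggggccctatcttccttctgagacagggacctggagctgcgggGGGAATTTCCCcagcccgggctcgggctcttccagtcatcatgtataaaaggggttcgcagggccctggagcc
Cxcl10: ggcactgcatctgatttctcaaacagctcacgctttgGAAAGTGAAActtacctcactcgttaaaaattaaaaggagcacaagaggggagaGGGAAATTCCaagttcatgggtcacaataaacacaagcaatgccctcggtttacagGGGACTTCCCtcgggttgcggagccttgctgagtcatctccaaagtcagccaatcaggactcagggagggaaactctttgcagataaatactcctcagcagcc
Cxcl1, Cxcl2 and Cxcl3 each held 2 overlapping NF-kB matches. Cxcl10 held 2 separate NF-kB matches and, upstream of them, 1 match to the interferon-stimulated response element, and nearer the start it also held 1 AP-1 match, left in lower case. A gene was counted for a motif where any of its windows held a match. On both strands the NF-kB motif occurred in 6 of the 23 members (Ccl9, Ccl20, Cxcl1, Cxcl2, Cxcl3 and Cxcl10) and in 4.46% of 27025 genes. The interferon element occurred in 3 members (Ccl19, Cxcl10 and Cxcl14) and in 3.46% of all these genes. The STAT element TTCNNNGAA occurred in 2 members and 8.13% of all these genes, and the AP-1 element TGANTCA in 3 members and 7.82%. A match is a description of the letters only.

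Of the 33 members, 15 were well above background on all 14 arrays, 15 on some and 3 on none. An array detected 17 to 23 of them. The 15 detected throughout were Ccl2, Ccl3, Ccl4, Ccl5, Ccl6, Ccl9, Ccl17, Ccl19, Ccl24, Ccl25, Ccl27a, Cxcl2, Cxcl9, Cxcl10 and Cxcl16. The eosinophil attractant Ccl11, the Ccr6 ligand Ccl20 and the neutrophil attractant Cxcl5 were on no array well above background. To be tested, a member had to exceed background on each of the 3 arrays of 1 or more of the 4 progenitor and myeloid cell groups, and 20 did. A member that entered only through a group in which it was high had to differ, so the counts below are descriptions.

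**Figure D1:**
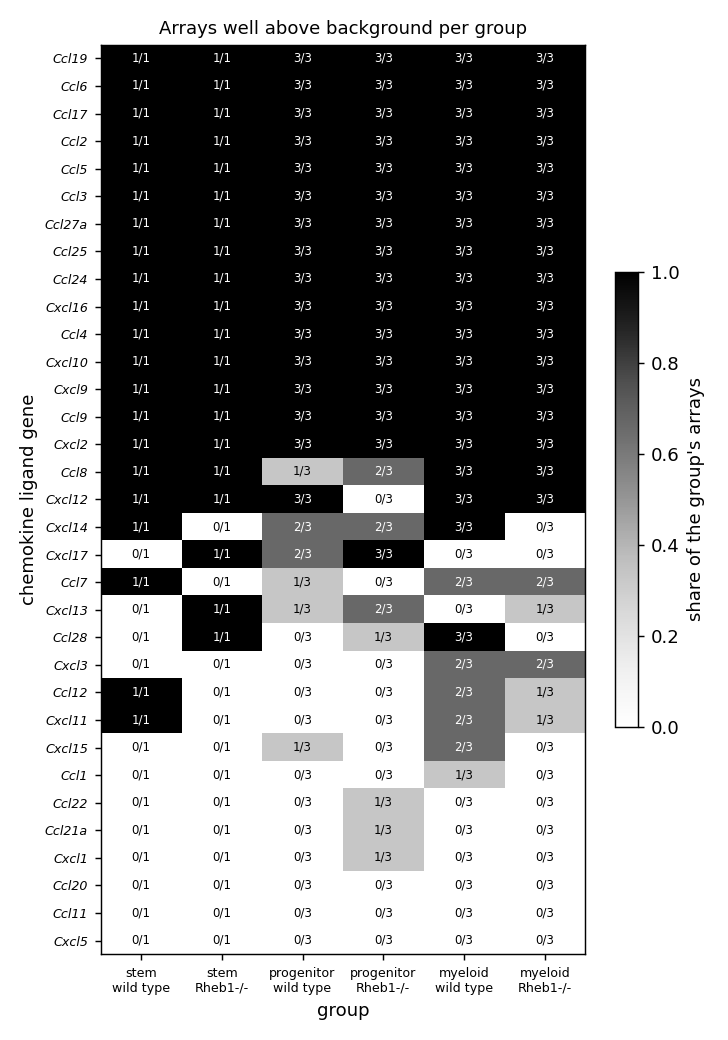
Arrays on which each of the 33 chemokine ligand genes was well above background, as a count over the arrays of each of the 6 groups, with shading for the share of arrays. The upper 15 genes are black in all groups, and the lowest 3 are white in all groups.

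In myeloid cells, 10 of the 20 tested members passed limma's test between genotypes at a Benjamini-Hochberg adjusted p under 0.05, where 34.2% of all 17719 genes tested did. Of these, 8 were lower in Rheb1-/- (17.6% of all genes) and 2 were higher (16.6% of all genes). Cxcl9, Cxcl12, Ccl6, Ccl5, Cxcl16, Ccl24, Ccl9 and Ccl25 fell, and Ccl4 and Ccl27a rose. The median difference over tested members was -0.58, against -0.08 over all genes tested. Groups did not overlap for 14 of the 20 members and for 50.1% of all genes. In progenitors no member passed between genotypes in limma, where 0.0734% of all genes (13) did, 0.0508% higher and 0.0226% lower. Of the 20 tested members, 7 had an unadjusted p under 0.05 in limma, as did 2170 of all 17719 genes. Groups did not overlap for 8 of the 20 members, against 20% of all genes. The progenitor median was -0.12 over members and 0.02 over all genes.

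Marker genes of other cells also differed between the myeloid cell groups, where 17.6% of all genes tested were lower in Rheb1-/- and 16.6% higher. Of 14 monocyte and macrophage markers 10 were lower in Rheb1-/- and 1, Vcam1, was higher. Their summed linear level, in units of the array's 75th percentile, was 580 to 592 in wild type and 443 to 485 in Rheb1-/-. The complement genes C1qa, C1qb and C1qc and the macrophage gene Cd5l were among those that fell, with Cd5l down by 2.67 on the log2 scale. All 5 erythroid markers on the array (summed level 8.36 to 17.1 in wild type and 1.8 to 6.87 in Rheb1-/-), 3 of 5 tested B cell markers (10.5 to 20.2 and 5.52 to 7.17), 3 of 7 dendritic cell markers (18.5 to 25.4 and 10.3 to 25.2) and 4 of 7 T and NK cell markers (21.3 to 28.2 and 41.7 to 59.9, with 1 marker, Nkg7, higher) also fell. Nkg7, at 4.14 to 4.66 in wild type and 5.34 to 5.89 in Rheb1-/-, weighed most in the T and NK cell sum, which rose. Of 14 neutrophil granule and maturation markers 5 rose, the early granule genes Ctsg, Prtn3, Elane and Mpo (by 1.38, 1.61, 1.11 and 0.62) and Ms4a3 (by 1.20), and Mmp9 fell by 0.96. The sums of these 14 markers were 4100 to 4350 in wild type and 3910 to 4840 in Rheb1-/-. The part of these markers in the chemokine differences was not tested.

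**Figure D2:**
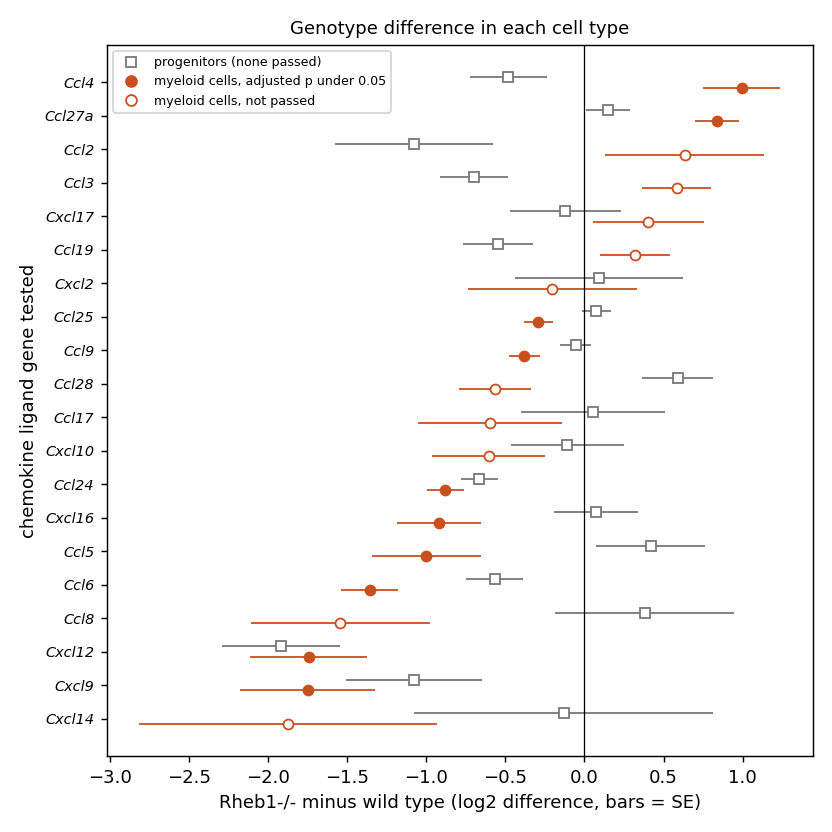
Rheb1-/- minus wild type for the 20 tested chemokine ligand genes, as log2 differences with standard errors, in progenitors (grey squares) and myeloid cells (orange circles, filled where the adjusted p is under 0.05). Of the 10 filled circles, 8 lie left of 0 and those of Ccl4 and Ccl27a lie right of it.

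Ccl3, Ccl4, Ccl5, Ccl6 and Ccl9 are inflammatory CC ligands that attract monocytes, macrophages and T cells. In myeloid cells 3 of these 5 fell and 1 rose in Rheb1-/-, where 17.6% of all genes fell and 16.6% rose. Ccl6 (probe at chr11:83401997-83402056 of mm9) read 7.16, 7.26 and 7.33 in wild-type myeloid cells and 6.10, 5.72 and 5.85 in Rheb1-/-. All Rheb1-/- arrays lay below all wild-type arrays, a 2.56-fold lower level (-1.36, SE 0.18, adjusted p = 0.000657). In progenitors it read 3.07, 3.25 and 3.20 in wild type and 3.06, 2.35 and 2.41 in Rheb1-/-, again without overlap, but the difference of -0.57 did not pass (adjusted p = 0.256), and it passed only without Rheb1-/- progenitor array 1 (0.0414). Ccl6 was 16.8-fold higher in myeloid cells than in progenitors in wild type (4.07, SE 0.18, adjusted p = 2.4e-08) and 9.74-fold higher in Rheb1-/- (3.28, adjusted p = 1.8e-07).

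Ccl9, a close relative of Ccl6 encoded beside it on chromosome 11, also fell. It read 5.05, 5.18 and 5.07 in wild-type and 4.71, 4.85 and 4.61 in Rheb1-/- myeloid cells, which did not overlap (-0.38, SE 0.10, adjusted p = 0.0137). This call was lost when array 2 of the wild-type myeloid cells (0.0518) or array 3 of the Rheb1-/- myeloid cells (0.0521) was left out. Progenitors read 4.59 to 4.83 in wild type and 4.56 to 4.76 in Rheb1-/-, with the groups overlapping. In wild type it was 1.31-fold higher in myeloid cells than in progenitors (adjusted p = 0.00421).

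Ccl3 and Ccl4, the macrophage inflammatory proteins, moved in opposite directions in the 2 cell types. In progenitors Ccl3 read 2.50, 2.73 and 2.54 in wild type and 2.07, 1.37 and 2.24 in Rheb1-/-. In myeloid cells it read 2.22, 2.34 and 2.65 in wild type and 2.82, 2.89 and 3.25 in Rheb1-/-. The Rheb1-/- arrays thus lay below wild type in progenitors and above it in myeloid cells, without overlap in either. Neither difference passed by itself (-0.70, adjusted p = 0.248, and 0.58, adjusted p = 0.0624), while the difference of the genotype effects did (1.28, SE 0.31, adjusted p = 0.0297). Among all genes 11% passed this test of the difference, and 3 of the 20 tested members did, 2 higher and 1 lower (5.61% and 5.4% of all genes). Within slide 3 the progenitor difference of Ccl3 was -0.92.

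For Ccl4 the progenitor arrays read 1.33, 1.43 and 1.12 in wild type and 1.06, 0.64 and 0.74 in Rheb1-/-. The myeloid cell arrays read 0.98, 0.88 and 1.60 in wild type and 2.50, 1.65 and 2.29 in Rheb1-/-. As for Ccl3, the groups did not overlap in either cell type. The myeloid cell difference was 1.99-fold higher in Rheb1-/- (0.99, SE 0.25, adjusted p = 0.0119), the progenitor difference did not pass (-0.48, adjusted p = 0.466), and the difference between them passed (1.48, SE 0.35, adjusted p = 0.0281). Both differences of effects were near the threshold. That of Ccl3 was lost without any of 7 arrays (wild-type progenitors 1 or 2, Rheb1-/- progenitors 1, wild-type myeloid cells 1 or 2, Rheb1-/- myeloid cells 2 or 3), with adjusted p from 0.0507 to 0.0682, and that of Ccl4 without any of 6 (wild-type progenitors 1 or 2, Rheb1-/- progenitors 2 or 3, wild-type myeloid cells 2, Rheb1-/- myeloid cells 3), from 0.056 to 0.0652. Between cell types both were higher in myeloid cells in Rheb1-/- (Ccl3 by 1.09, adjusted p = 0.00118, and Ccl4 by 1.34, adjusted p = 0.000694), while in wild type their groups overlapped. With slide as a block the Ccl3 call was lost (0.75, adjusted p = 0.0587).

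Ccl5, also called RANTES, is best known from T and NK cells. It read 0.94, 1.85 and 1.56 in wild-type myeloid cells and 1.08, -0.38 and 0.65 in Rheb1-/-, so the groups overlapped. The level was 2.00-fold lower in Rheb1-/- (-0.999, SE 0.35, adjusted p = 0.0482). This call did not hold in 14 of 22 alternatives. It was lost without any 1 of the 6 progenitor arrays (0.0582 to 0.0635), without wild-type myeloid cell array 2 or 3 (0.151 and 0.12) and without Rheb1-/- array 2 or 3 (0.134 and 0.076). Without Rheb1-/- array 2 the difference was -0.59. In progenitors Ccl5 read -0.94, -0.50 and -0.72 in wild type and -0.13, -0.53 and -0.25 in Rheb1-/-. In wild type it was 4.50-fold higher in myeloid cells than in progenitors (2.17, adjusted p = 0.000206).

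**Figure D3:**
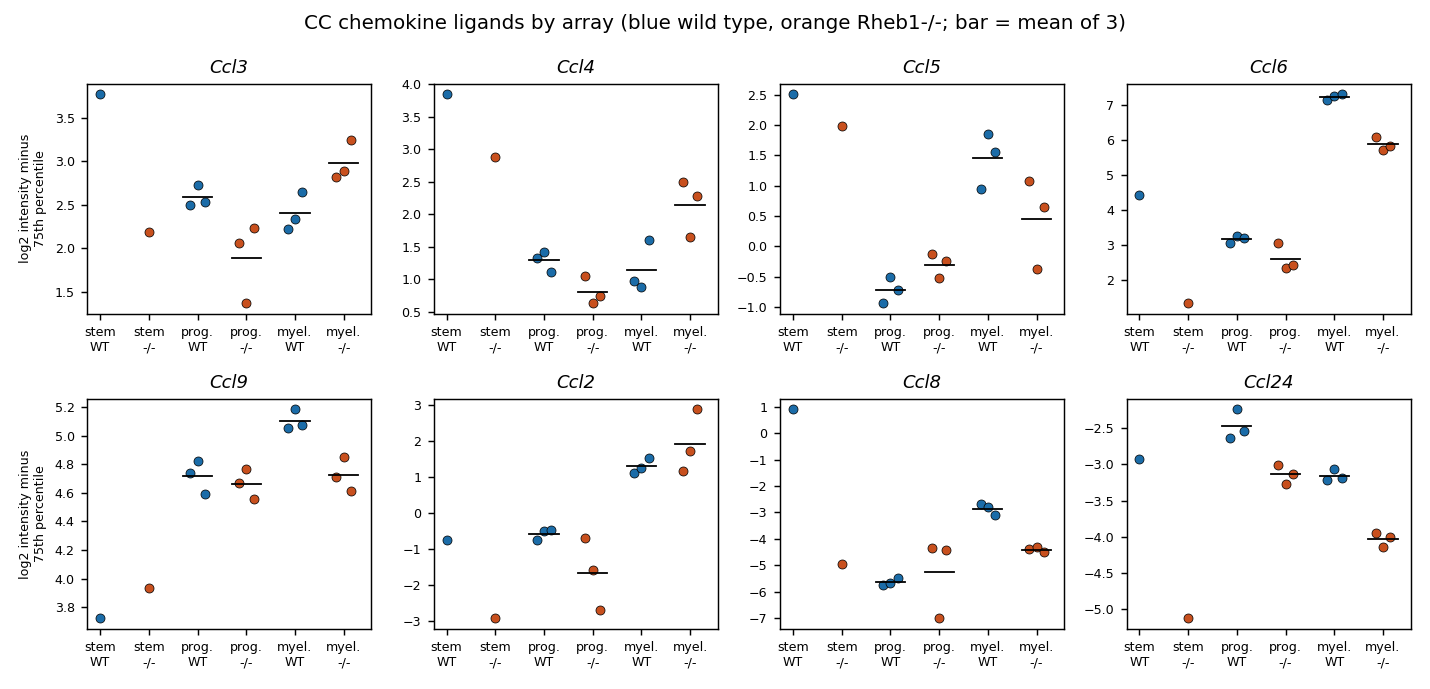
Level of 8 CC chemokine ligand genes on each array (log2 intensity minus the array's 75th percentile), with wild type in blue, Rheb1-/- in orange and a bar at the mean of 3 arrays. Ccl6 lies at 7.16 to 7.33 in wild-type and 5.72 to 6.10 in Rheb1-/- myeloid cells, and each panel has its own axis.

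Ccl2, Ccl7, Ccl8 and Ccl12 are monocyte attractants, and Ccl2, Ccl7 and Ccl12 signal through Ccr2. Ccl2 and Ccl8 could be tested, and neither passed between genotypes in either cell type. Ccl2 (10 spots of 1 probe) read 1.10, 1.25 and 1.53 in wild-type myeloid cells and 1.18, 1.73 and 2.88 in Rheb1-/-. Progenitor arrays read -0.75, -0.50 and -0.48 in wild type and -0.68, -1.59 and -2.70 in Rheb1-/-. The Rheb1-/- arrays were widely spread in both cell types and overlapped wild type. Between cell types Ccl2 was 3.65-fold higher in myeloid cells in wild type (1.87, SE 0.50, adjusted p = 0.00597) and 12-fold higher in Rheb1-/- (3.58, adjusted p = 0.000103).

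Ccl8 read -2.68, -2.80 and -3.08 in wild-type and -4.38, -4.32 and -4.50 in Rheb1-/- myeloid cells. The groups were far apart, yet the difference of -1.54 did not pass (SE 0.57, adjusted p = 0.0591). Rheb1-/- progenitors read -4.35, -7.00 and -4.41, and the fit shares 1 estimate of the spread over groups. Without the array at -7.00, Rheb1-/- progenitor array 2, the myeloid cell difference passed (adjusted p = 0.000347), as it did without Rheb1-/- progenitor array 1 (0.0481) and in a fit of the 6 myeloid cell arrays (0.00358). Wild-type progenitors read -5.75 to -5.48 and 1 of their 3 arrays was well above background. In wild type Ccl8 passed as higher in myeloid cells (2.78, adjusted p = 0.00112), a size that rests mostly on progenitor arrays not well above background and was 1.05 with normexp background correction. Ccl8 was tested only through the myeloid cell groups, in which it was high, so this call between cell types is a description.

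Ccl7 and Ccl12 were not tested. The chosen Ccl7 probe was well above background on 2 of 3 myeloid cell arrays of each genotype and on 1 wild-type progenitor array, and its second probe on 1 Rheb1-/- myeloid cell array and both stem cell arrays. Its levels ranged from -5.94 to -4.71 in wild-type and -5.56 to -2.78 in Rheb1-/- myeloid cells. Ccl12 was well above background on 2 wild-type and 1 Rheb1-/- myeloid cell array, with levels of -5.59 to -5.22 and -6.34 to -5.36.

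Ccl24, the eotaxin that attracts eosinophils through Ccr3, was lower in Rheb1-/- in both cell types. In myeloid cells it read -3.21, -3.06 and -3.19 in wild type and -3.95, -4.15 and -4.00 in Rheb1-/- (1.84-fold lower, -0.88, SE 0.12, adjusted p = 0.000684). Progenitor arrays read -2.63, -2.24 and -2.54 in wild type and -3.004, -3.27 and -3.14 in Rheb1-/-. No arrays overlapped there either, but the difference of -0.67 did not pass (adjusted p = 0.0759). It was -0.75 within slide 3. The second Ccl24 probe gave -0.64 in progenitors and -0.996 in myeloid cells. The myeloid cell difference was -0.45 with normexp (adjusted p = 0.0108). Markers of eosinophils, basophils and mast cells summed to 37.7 to 97.9 in wild-type and 17.4 to 65.4 in Rheb1-/- myeloid cells, with 3 of 8 lower (17.6% of all genes). Their part was not tested. Ccl24 was lower in myeloid cells than in progenitors in wild type (-0.68, adjusted p = 0.000336) and in Rheb1-/- (-0.90, adjusted p = 6.22e-05), and by -0.31 and -0.35 with normexp.

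Ccl17, a ligand of Ccr4, was detected on every array and its groups overlapped between genotypes in both cell types. Its values ran from -4.61 to -3.02 in wild-type and -4.74 to -4.50 in Rheb1-/- myeloid cells. In Rheb1-/- it was lower in myeloid cells than in progenitors (-1.48, SE 0.46, adjusted p = 0.0147). That call was lost with slide as a block (adjusted p = 0.129) and without Rheb1-/- progenitor array 1 (0.0609), and the difference was -0.59 with normexp. Ccl22, the other Ccr4 ligand, was well above background on 1 Rheb1-/- progenitor array only.

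Ccl27a, a ligand of Ccr10 known from skin, rose in Rheb1-/- myeloid cells. It read -1.71, -1.66 and -2.04 in wild type and -1.23, -0.74 and -0.92 in Rheb1-/-, without overlap (1.79-fold higher, 0.84, SE 0.14, adjusted p = 0.00196). Its receptor gene Ccr10 was also higher there (1.503, adjusted p = 0.0178). Of the wild-type myeloid cell arrays (-5.48, -7.45 and -6.30) only 1 was well above background for Ccr10, so this is no measured size. Ccr10 was tested only through the Rheb1-/- groups, in which it was high, so the call is a description. In progenitors Ccl27a read -0.89 to -0.65 in wild type and -0.63 to -0.58 in Rheb1-/-. It was lower in myeloid cells than in progenitors in wild type (-1.05, adjusted p = 5.41e-05) and in Rheb1-/- (-0.36, adjusted p = 0.0413). The second of these calls was lost in 10 alternatives, among them the leaving out of wild-type progenitor array 2 (0.0541), of any Rheb1-/- progenitor array (0.0765, 0.0921 and 0.0844) or of Rheb1-/- myeloid cell array 1 or 3 (0.157 and 0.0664).

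Ccl25, the Ccr9 ligand of thymus and gut, was slightly lower in Rheb1-/- myeloid cells. It read -0.05, 0.04 and 0.21 in wild type and -0.17, -0.29 and -0.21 in Rheb1-/- (-0.29, SE 0.09, adjusted p = 0.032). The call was lost without wild-type myeloid cell array 2 or 3 (0.066 and 0.105) or Rheb1-/- array 2 or 3 (0.0956 and 0.0699). Its second probe gave a larger genotype difference of -0.99. Between cell types in wild type the probes disagreed, with -0.40 (adjusted p = 0.00236) from the chosen probe and 0.05 from the other, and the mean of both did not pass (-0.18, adjusted p = 0.408). In Rheb1-/- both were lower in myeloid cells, by -0.76 (adjusted p = 3.22e-05) and -0.94.

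Ccl19, the Ccr7 ligand that guides dendritic cells and T cells, read -3.45 to -3.18 in wild-type and -4.11 to -3.54 in Rheb1-/- progenitors. These groups did not overlap, and the difference of -0.55 did not pass (adjusted p = 0.362). In wild type it was lower in myeloid cells (-0.70, adjusted p = 0.0146), but by -0.12 with normexp (adjusted p = 0.563) and by -1.07 over the mean of its probes. Ccl28, a mucosal ligand of Ccr3 and Ccr10, was well above background on all 3 wild-type myeloid cell arrays (-5.76, -5.52 and -5.56) and on no Rheb1-/- one (-6.11, -6.29 and -6.14), which set it at least 1.16-fold higher in wild type (adjusted p = 0.0788, with a measured difference of -0.57, or -0.11 with quantile normalization). This bound puts the wild-type mean against the lowest well-measured signal on each Rheb1-/- array, or the gene's own signal where that is higher. It holds for the processed signal only, and the difference with quantile normalization was smaller than it. In wild type Ccl28 was at least 1.11-fold higher in myeloid cells than in progenitors (adjusted p = 0.000902), a call lost with normexp (0.0528). Ccl28 was tested only through wild-type myeloid cells, a group in which it was high, so its calls are descriptions. The fitted difference of its genotype effects (-1.16, SE 0.32, adjusted p = 0.0474) rests on values mostly not well above background, since 0 wild-type and 1 Rheb1-/- progenitor array measured it, and is no measured size. In 14 of 20 alternatives it did not pass. Leaving out any array other than wild-type progenitor 3 or Rheb1-/- progenitor 2 was enough to lose it (0.054 to 0.0945), as was normexp (-0.32, adjusted p = 0.421).

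Of the ELR CXC ligands, which draw neutrophils through Cxcr2, 1 of 5 was detected throughout. Cxcl2 read 0.99, 1.33 and 1.64 in wild-type and 1.39, 0.30 and 1.67 in Rheb1-/- myeloid cells. On progenitor arrays Cxcl2 read -2.14, -2.17 and -2.30 in wild type and -2.14, -3.30 and -0.89 in Rheb1-/-. Genotypes overlapped in both cell types, and Rheb1-/- arrays were more spread. Cxcl2 was 11.5-fold higher in myeloid cells than in progenitors in wild type (3.52, SE 0.53, adjusted p = 0.000139) and 9.36-fold higher in Rheb1-/- (3.23, adjusted p = 0.000332). Within slide 4 (1 progenitor and 3 myeloid cell arrays) the second difference was 2.01, and it was 2.63 without Rheb1-/- progenitor array 2 and 3.83 without array 3.

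The other ELR members were dim. Cxcl3 was well above background on 2 of 3 myeloid cell arrays of each genotype and on no progenitor or stem cell array. It read -6.00 to -4.84 in wild-type and -5.80 to -4.93 in Rheb1-/- myeloid cells, and -8.54 to -7.35 over all progenitor arrays. Cxcl1 was well above background on 1 Rheb1-/- progenitor array, Cxcl15 on 1 wild-type progenitor and 2 wild-type myeloid cell arrays, and Cxcl5 on none. The NF-kB matches printed above were thus present in the windows of a member detected on every array (Cxcl2) and of members detected on few (Cxcl3) or 1 (Cxcl1).

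Cxcl9, Cxcl10 and Cxcl11 are induced by interferons and act on Cxcr3. Cxcl9 read -0.98, -1.60 and -1.08 in wild-type myeloid cells and -2.45, -4.19 and -2.27 in Rheb1-/-. All Rheb1-/- arrays lay below wild type, 1 of them by far (3.36-fold lower, -1.75, SE 0.43, adjusted p = 0.0114). Without that array, Rheb1-/- myeloid cell array 2, the difference was -1.14 (adjusted p = 0.00715), and it was -1.13 with normexp. In progenitors Cxcl9 read -3.33, -3.32 and -3.31 in wild type and -4.57, -4.01 and -4.61 in Rheb1-/-. These did not overlap, and the difference of -1.08 did not pass (adjusted p = 0.356). Cxcl9 was higher in myeloid cells than in progenitors in wild type (2.10, adjusted p = 0.00112, or 1.47 with normexp). In Rheb1-/- the difference was 1.43 (adjusted p = 0.0128) with overlapping groups, 0.84 with normexp, and not past the threshold with slide as a block (0.065) or without Rheb1-/- myeloid cell array 1 (0.0524) or 3 (0.0525). Without array 2 it was 2.04.

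Cxcl10 read 1.35, 1.57 and 1.10 in wild-type and 0.98, 0.15 and 1.07 in Rheb1-/- myeloid cells. The groups did not overlap, by a narrow margin, and the difference of -0.61 did not pass (adjusted p = 0.216). In progenitors it read 0.23 to 0.31 in wild type and -0.63 to 0.94 in Rheb1-/-. In wild type Cxcl10 was 2.09-fold higher in myeloid cells (1.07, adjusted p = 0.0195), a call lost without wild-type myeloid cell array 2 (0.0632). Cxcl11 was well above background on 2 wild-type and 1 Rheb1-/- myeloid cell array and was not tested.

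Cxcl12, the Cxcr4 ligand of the marrow niche, is known chiefly from stromal cells. Its chosen probe (chr6:117131227-117131286 of mm9) read -1.54, -0.78 and -0.56 in wild-type myeloid cells and -2.39, -3.65 and -2.07 in Rheb1-/-. The groups did not overlap, and the level was 3.35-fold lower in Rheb1-/- (-1.74, SE 0.37, adjusted p = 0.00606, or -1.19 with normexp). In progenitors it read -4.58, -4.46 and -4.67 in wild type and was not well above background on any Rheb1-/- array (-6.37, -6.39 and -6.70). That set it at least 2.88-fold lower in Rheb1-/-, which did not pass (adjusted p = 0.0831), except without Rheb1-/- myeloid cell array 2 (0.0439). With normexp the progenitor difference was -0.45 (adjusted p = 0.591), and the second probe, dim in progenitors, gave -0.37. Each is smaller than this bound, which holds only for the processed signal of the chosen probe. The second probe was well above background on the 3 wild-type myeloid cell arrays (-5.04, -4.57 and -4.27) and the wild-type stem cell array, and on no other array. Cxcl12 was 12.2-fold higher in myeloid cells than in progenitors in wild type (3.61, adjusted p = 7.64e-06, or 2.21 with normexp) and at least 10.5-fold higher in Rheb1-/- (3.78, adjusted p = 8.01e-06). That second difference was 1.46 with normexp, below the bound, and 2.43 over the mean of its probes. The 8 stromal and endothelial markers summed to 0.824 to 1.63 in wild-type and 0.612 to 1.48 in Rheb1-/- myeloid cells, and 1.06 to 1.57 and 0.613 to 1.2 in progenitors. In Rheb1-/- myeloid cells 2 of 5 tested markers were lower, against 17.6% of all genes. Their part in the Cxcl12 values was not tested.

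Cxcl16, a membrane-bound ligand of Cxcr6 made by macrophages and dendritic cells, read -1.91, -2.56 and -2.70 in wild-type and -3.13, -3.38 and -3.41 in Rheb1-/- myeloid cells. It was 1.89-fold lower in Rheb1-/- (-0.92, SE 0.27, adjusted p = 0.0238, or -0.53 with normexp). The call was lost without wild-type myeloid cell array 1 (0.0748) or Rheb1-/- array 2 (0.0658) or 3 (0.0717). In progenitors the genotypes overlapped, at -4.04 to -3.36 and -4.17 to -3.45. In wild type Cxcl16 was 2.68-fold higher in myeloid cells (1.42, adjusted p = 0.000626, or 0.84 with normexp). Its receptor gene Cxcr6 was also lower in Rheb1-/- myeloid cells (-1.06, adjusted p = 0.00421).

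Cxcl14 was well above background on all 3 wild-type myeloid cell arrays (-4.94, -3.94 and -3.93) and on none in Rheb1-/- (-5.64, -7.17 and -5.62). It was at least 2.68-fold lower in Rheb1-/-, which did not pass (adjusted p = 0.15). With normexp the difference was -0.55, smaller than this bound. It passed without wild-type progenitor array 1 (0.0427), where Cxcl14 read -7.81 against -4.54 and -4.07 on the other two. In the fit of all 12 arrays Cxcl14 was tested only through wild-type myeloid cells, a group in which it was high. Its differences are therefore descriptions. Cxcl17 was well above background on all Rheb1-/- progenitor arrays, on 2 wild-type ones and on no myeloid cell array. It was at least 1.88-fold lower in myeloid cells in wild type (adjusted p = 0.00107) and at least 1.65-fold lower in Rheb1-/- (adjusted p = 0.0109). Cxcl17 was tested only through Rheb1-/- progenitors, a group in which it was high, so these calls are descriptions. With normexp the differences were 0.13, of opposite sign, and -0.01, and the second was lost with slide as a block (adjusted p = 0.129). Cxcl13, the B cell attractant, was well above background on 4 of the 12 arrays, and 1 wild-type progenitor array stood far above the rest at -2.91.

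**Figure D4:**
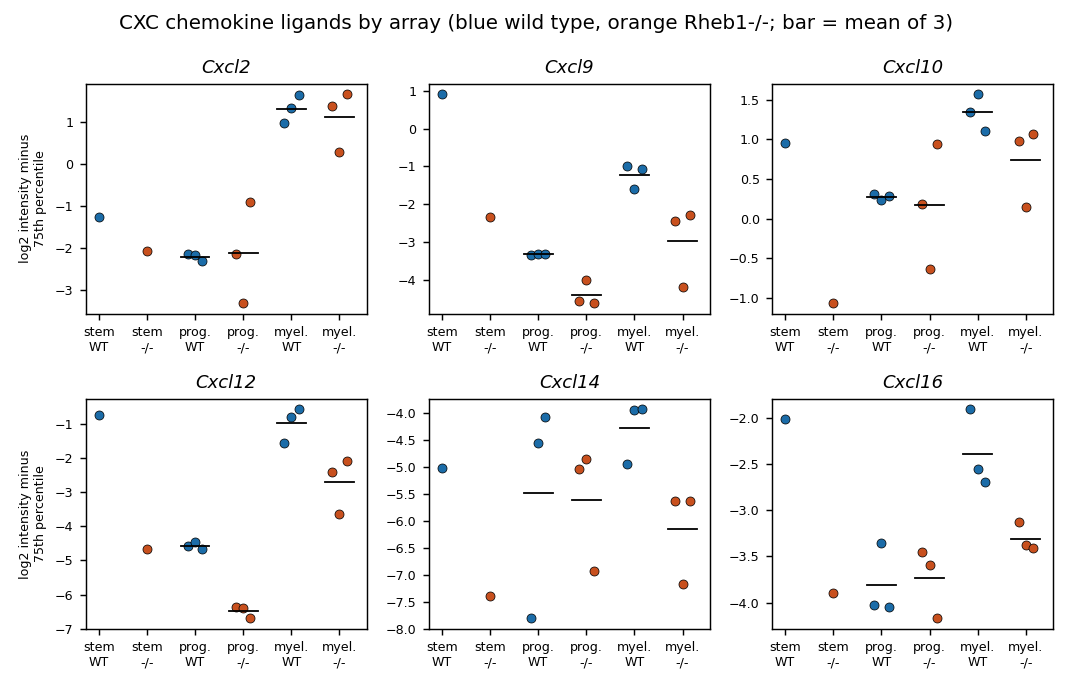
Level of 6 CXC chemokine ligand genes on each array (log2 intensity minus the array's 75th percentile), with wild type in blue, Rheb1-/- in orange and a bar at the mean of 3 arrays. Cxcl12 lies at -1.54 to -0.56 in wild-type and -3.65 to -2.07 in Rheb1-/- myeloid cells, and each panel has its own axis.

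Between cell types, 16 of the 20 tested members passed in wild type, where 77.9% of all genes did, 11 higher in myeloid cells (39.5% of all genes) and 5 lower (38.4%). In Rheb1-/- 12 passed, against 68.6% of all genes, 7 higher (30.4%) and 5 lower (38.3%). Groups did not overlap for 16 members in wild type and 12 in Rheb1-/-, against 80% and 73.2% of all genes. The total shares of members lay near those of all genes in wild type. The median difference was 1.11 over members in wild type and 0.50 in Rheb1-/-, against 0.07 and -0.08 over all genes. Higher in both were Ccl2, Ccl6, Cxcl2, Cxcl9 and Cxcl12, and lower in both were Ccl24, Ccl25, Ccl27a and Cxcl17. Of these, Cxcl17 was tested only through Rheb1-/- progenitors, where it was high, and its differences did not hold with normexp.

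Of 22 listed chemokine receptor genes 17 could be tested. In Rheb1-/- myeloid cells 7 fell and Ccr10 rose, where 17.6% of all genes fell and 16.6% rose. Ccr10 was tested only through the Rheb1-/- groups, in which it was high. Ccr3, the eotaxin receptor, fell by 2.20 (adjusted p = 0.00315), Ccr9 by 1.14 (adjusted p = 0.00539) and Ccr6, the Ccl20 receptor, by 1.79 (adjusted p = 0.00601). For Ccr6 and Ccr9 the genotype effect was lower in myeloid cells than in progenitors (-2.80, adjusted p = 0.0154, and -1.47, adjusted p = 0.0258). Of the wild-type progenitor arrays (-6.21, -5.48 and -5.03) only 1 was well above background for Ccr6, so its -2.80 is no measured size. No receptor passed between genotypes in progenitors, where 0.0734% of all genes did. Between cell types 15 of 17 receptors were higher in wild-type myeloid cells and 12 of 17 in Rheb1-/-, and none was lower. Ccr1, Ccr7, Cxcr1 and Cxcr5, all counted in both, were tested only through the myeloid cell groups, in which they were high. These counts are therefore descriptions. Of all genes, 39.5% were higher and 38.4% lower in wild type, and 30.4% and 38.3% in Rheb1-/-. The neutrophil receptor Cxcr2 was higher by 5.89 and 5.11, and the monocyte receptor Ccr2 by 2.23 and 2.01.

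Of 22 listed regulators of NF-kB, interferon and inflammation 21 were tested. In Rheb1-/- myeloid cells 4 fell and 2 rose, where 17.6% of all genes fell and 16.6% rose. The interferon regulators Irf5, Irf7 and Irf1 fell by 0.74, 0.90 and 0.39 (adjusted p = 0.00346, 0.00828 and 0.0104), and Nfkbiz, an atypical IkB protein, rose by 1.08 (adjusted p = 0.00414). None passed in progenitors. In myeloid cells against progenitors 17 were higher and 2 lower in wild type, and 15 were higher and 0 lower in Rheb1-/- (limma). Over all genes the shares were 39.5% higher and 38.4% lower in wild type, and 30.4% and 38.3% in Rheb1-/-. Of the chemokines whose names fall outside the rule, the platelet chemokines Pf4 and Ppbp fell in Rheb1-/- myeloid cells by 1.39 and 2.19 (adjusted p = 0.0256 and 0.0103); these genes are platelet markers, and 5 of 8 megakaryocyte and platelet markers, which include them, were lower there.

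The stem cell arrays, 1 per genotype, allow no test. Of the 17 members well above background on both, 9 were lower by 1 or more on the Rheb1-/- array and 0 higher by 1 or more, against 6.35% and 5.21% of the 16683 genes measured on both. The median difference was -1.58 over these members and 0.12 over all these genes. Ccl8 read 0.90 on the wild-type and -4.93 on the Rheb1-/- array. Cxcl12 read -0.72 and -4.66, Cxcl9 0.92 and -2.33, and Ccl6 4.43 and 1.33. The others lower by 1 or more were Ccl24 (-2.92 and -5.13), Ccl2 (-0.76 and -2.92), Cxcl10 (0.95 and -1.06), Cxcl16 (-2.02 and -3.89) and Ccl3 (3.77 and 2.19). With normexp these 9 differences ran from -4.16 (Ccl8) to -1.06 (Cxcl16). Ccl12, Cxcl11 and Cxcl14 were well above background on the wild-type array only, at least 15.8-fold, 6.03-fold and 2-fold higher there, but with normexp the log2 differences were -2.17, -0.79 and -0.36, all smaller than these bounds. The chosen Ccl7 probe was likewise well above background on the wild-type array only (-3.80), while its second probe was well above background on both (-3.27 and -4.55), and with normexp the chosen probe gave -0.91. Ccl4, Ccl5, Ccl9, Ccl17, Ccl19, Ccl25, Ccl27a and Cxcl2 differed by less than 1. Cxcl13, Ccl28 and Cxcl17 were well above background on the Rheb1-/- array only, at least 1.23-fold, 1.06-fold and 2.44-fold higher there, or by 0.24, 0.29 and 0.34 on the log2 scale with normexp. The normexp values of Cxcl13 and Cxcl17 were smaller than these bounds.

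Markers of other cells also differed between the stem cell arrays. The summed level of the 14 monocyte and macrophage markers was 420 on the wild-type and 99.2 on the Rheb1-/- array. C1qa read 4.97 and -0.01, Cd5l 5.51 and -0.48, and Adgre1, which encodes F4/80, 4.19 and -0.28. Sums for eosinophil, basophil and mast cell markers were 197 and 23.6, for dendritic cell markers 44.7 and 14.9, for B cell markers 28.5 and 13.8 and for erythroid markers 5.15 and 1.64. Sums were alike or higher on the Rheb1-/- array for megakaryocyte and platelet markers (22.2 and 22.6), stromal and endothelial markers (3.67 and 4.63), T and NK cell markers (37.3 and 47.3) and stem cell markers (119 and 148). The brightest genes weigh most in such sums. Of the stromal and endothelial markers, Pdgfrb (1.06 and 2.08) and Lepr were higher, while Col1a1 (-2.39 and -5.79), Col1a2 (0.19 and -2.13), Cdh5 and Kdr were lower. Of the T and NK cell markers, Nkg7 (4.995 and 5.44) and Cd3e were higher and all others lower, such as Cd3d (-1.32 and -2.45). Neutrophil granule and maturation markers summed to 1570 and 1270. Of these, Mpo, Elane, Prtn3, Ctsg (6.995 and 7.845), Ms4a3 and Csf3r were higher on the Rheb1-/- array. All others were lower, such as Ngp (6.13 and 3.83). On each of the arrays of cells labelled stem cells all 14 monocyte and macrophage markers were well above background, at a higher summed level in wild type. The part of these markers in the chemokine values was not tested.

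**Figure D5:**
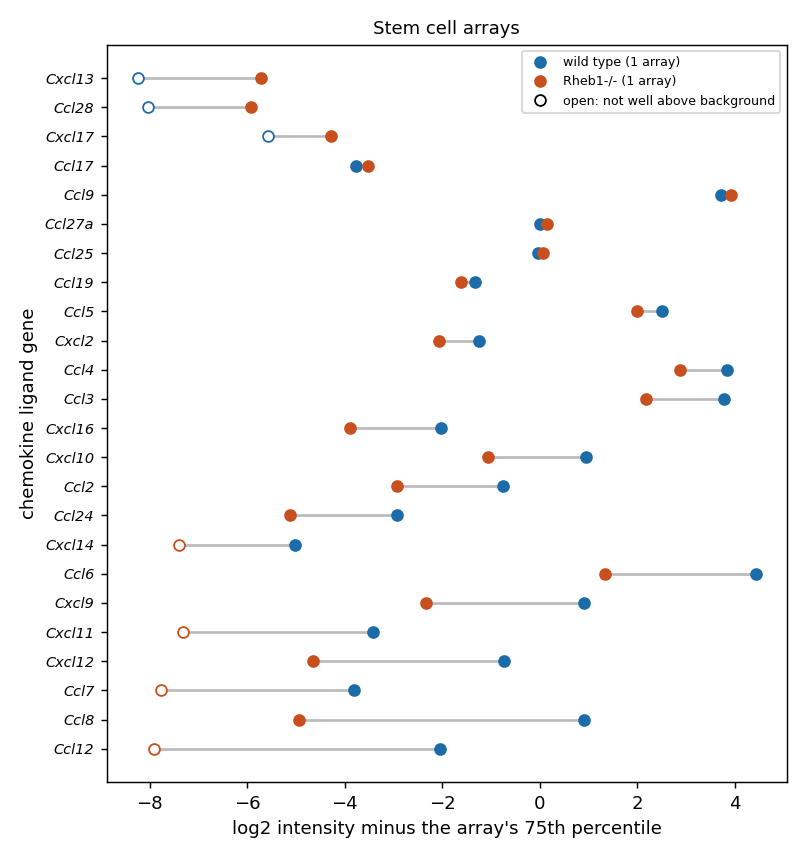
Level of 24 chemokine ligand genes on the 2 stem cell arrays (log2 intensity minus the array's 75th percentile), wild type in blue and Rheb1-/- in orange, open where not well above background. Ccl8 moves from 0.90 to -4.93, and 9 of the 17 genes filled on both arrays are lower by 1 or more in Rheb1-/-.

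The remaining members were rarely detected. Ccl1 was well above background on 1 wild-type myeloid cell array and Ccl21a on 1 Rheb1-/- progenitor array.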

How the data were processed

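Cy3-labelled RNA was hybridised to arrays of 1 colour, per the labels' protocols. The intensity used is the processed signal, background-subtracted by Agilent Feature Extraction, per the file headers (version 10.7.3.1 there, 9.1 in the submitters' processing notes). Mean and background intensities and the background flags also came from the deposited scanner files. The deposited value table, with 41265 probes, is in log2 units and quantile normalized to within 0.00234; its background treatment is unknown here.

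Control and outlier spots were left out and spots of a probe averaged (41174 probes). Names came from the files or a RefSeq table for GRCm38.p6. From each log2 processed intensity the 75th percentile of its array was subtracted, and 12 arrays were fitted with limma 3.58.1 in R 4.3.3, 1 mean per group (8 residual and 1.947 prior degrees of freedom), over 17719 genes that exceeded background throughout 1 or more of the 4 groups. P-values are two-sided and Benjamini-Hochberg adjusted over all these genes, with a threshold of 0.05. Every member is accounted for, and those well above background on all arrays of a group are named with values; of other lists, at most the 4 passing genes of smallest p are named. Ccr10 and the markers C1qa, C1qb, C1qc, Cd5l, Vcam1, Adgre1, Ctsg, Prtn3, Elane, Mpo, Ms4a3, Mmp9, Ngp and Nkg7 were chosen after their values were seen. The members and lists were chosen with earlier results of these data known. The fit was tested on simulated data. Alternatives were normexp correction (offset 50), quantile normalization, the value table, the mean of probes, no filter or one on all 12 arrays, blocks for slide and for replicate number, fewer arrays, and each array left out. The probe picked over 12 arrays was chosen after seeing the data.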

Additional observations from a re-analysis of the deposited data

Results flagged for a closer look

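Results are given here because the genotype effect differed between myeloid cells and progenitors by limma's test of that difference itself (12 arrays). The values are the effect in myeloid cells minus that in progenitors. For Ccl4 it was 1.475 (adjusted p = 0.0281), for Ccl3 1.281 (adjusted p = 0.0297) and for Ccl28 -1.155 (adjusted p = 0.0474). Ccl28 was well above background on all 3 wild-type myeloid cell arrays, on 1 Rheb1-/- progenitor array and on no other of the 12, so its value is set mostly by unmeasured signals and is no measured size. It was tested only through wild-type myeloid cells, where it was high, so its call is a description. Ccl3 and Ccl4 were lower in Rheb1-/- progenitors and higher in Rheb1-/- myeloid cells on all 3 arrays of each group. Slide and group cannot be told apart in this comparison.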

How the results depend on the processing

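Of 100 member results (20 members in 5 comparisons) 41 passed. Of these, 24 kept their call and direction in all alternatives run, 16 lost the call in some and 1 reversed. Of the 59 that did not pass, 17 passed in some alternative and 18 changed sign in some. The cause was not tested.

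Members called for the difference of genotype effects (3) became 5 with quantile normalization, the value table or slide as a random block, 1 with no filter, and 0 to 5 with an array left out. In Rheb1-/- the 12 members called between cell types became 7 with slide as a fixed block. Leaving out an array gave 0 to 1 called members in progenitors and 6 to 11 in myeloid cells, the lowest without Rheb1-/- array 3. Over all genes, the 13 called in progenitors became 33 with normexp, 7 with no filter, 4 with slide as a fixed block, 1 on slide 3, 0 with only the 6 arrays and 6 to 81 with an array left out; the share of higher calls there went from 69.2% to 24.2% with normexp. The 1951 called for the difference became 772 with no filter and 904 to 2178 with an array left out, and their share of higher calls went from 50.9% to 63.7% with quantile normalization and 63.9% with the value table.

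Reversals follow. With normexp, Cxcl17 between cell types in wild type was 0.126 (adjusted p = 0.576), Cxcl17 between myeloid genotypes -0.198 and for the difference of effects -0.134, Cxcl12 for that difference -0.741, Cxcl16 between progenitor genotypes -0.08, and between cell types in Rheb1-/- Ccl28 0.063 and Cxcl14 0.062. With the mean of probes, Cxcl16 in progenitors was -0.199 and Cxcl12 for the difference -0.927. With slide as a fixed block, progenitor differences were -0.099 for Ccl8, 0.007 for Ccl9 and -0.484 for Cxcl2, the last 2 the same on slide 3 alone, and cell type differences in Rheb1-/- were -0.206 for Cxcl10 and 0.791 for Cxcl14. In that comparison Ccl28 was 0.114 with quantile normalization, 0.113 with the value table and 0.061 with slide as a random block, and Ccl9 -0.024 and -0.023 with the first pair. With an array left out, progenitor differences ran from -0.317 to 0.377 for Ccl17, -0.072 to 1.255 for Ccl8, -0.495 to 0.29 for Cxcl10, -1.299 to 0.569 for Cxcl14, -0.07 to 0.301 for Cxcl16 and -0.516 to 0.688 for Cxcl2. The myeloid genotype difference of Cxcl2 ran from -0.477 to 0.209, and differences of effects from -0.141 to 0.647 for Cxcl12 and -0.89 to 0.314 for Cxcl2. Cell type differences in Rheb1-/- ran from -0.081 to 0.399 for Ccl19, -0.205 to 0.188 for Ccl28, -0.022 to 1.304 for Ccl8 and -0.002 to 0.116 for Ccl9.

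Replicate numbers did not pair the samples: deviations of same-numbered samples correlated at -0.149 to 0.13, others at -0.165 to 0.143. With the replicate block, 0, 10, 3, 16 and 12 members passed in the 5 comparisons, the same counts as without it, but in myeloid cells Ccl5 lost its call (adjusted p = 0.078) and Ccl28 gained one (0.045); of all genes, 14, 5700, 1340, 13632 and 12028 passed. Slide as a fixed block could not be fitted for comparisons that involve wild-type myeloid cells. Members near background are limited by their signal, and 13 were not tested.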
